A study of Capra hircus with 6 samples.

Results

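The ribosome biogenesis factors are the proteins that make ribosomes without being part of them. Here they are the genes that the KEGG annotation beside the deposited counts places in the map "Ribosome biogenesis in eukaryotes", 78 of the 15944 genes listed. The counts come from secondary hair follicle dermal papilla cells (SHF-DPCs), primary wild type cultures from the skin of Albas cashmere goats (Capra hircus) that were 3 years old. The control group (3 libraries) was grown without all-trans retinoic acid (ATRA), and the ATRA-treated group (3 libraries) received ATRA, the vitamin A metabolite that binds retinoic acid receptors, at 0.1 mM for 24 h. The cells came from 3 animals, and the labels do not say which libraries share one. Of the 78 members, 75 had enough reads to be tested.

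Ribosomal RNA is transcribed in the nucleolus as a long precursor. Small nucleolar ribonucleoproteins (snoRNPs) modify it, the small subunit processome folds and cuts it, and nucleases trim its ends. The precursors of the small and the large subunit then part, are exported through nuclear pores, and lose their last assembly factors in the cytoplasm. In animals this pathway is known for running fast in cells that grow and divide.

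The control libraries held 36887160 to 38012771 counts each and the ATRA libraries 35532339 to 36870939. Levels are given as normalized CPM, the counts of a gene as a share of the library (counts per 1e6) after scaling by edgeR's TMM method, and differences as the log2 fold change (log2FC) of ATRA over control from edgeR's quasi-likelihood test. A change is called at a Benjamini-Hochberg adjusted p under 0.05 over the 12588 genes tested. The scaling matters, since dividing by library size only raised the median log2FC of all genes by 0.48, from 0.04 to 0.52, so each direction below is relative to the typical gene. All 12 mesenchymal and dermal papilla markers tested, of 15 listed, were lower with ATRA, and their summed level was 93800 to 95500 CPM in the control group and 4840 to 5160 CPM with ATRA. Of the markers of the labelled cell type, PROM1 had 1 count in 1 control library and none elsewhere, ALPL had 1 count in 1 ATRA library, and ACTA2 had 200752 to 220329 counts in the control group and 332 to 397 with ATRA. SOX2, also not tested, went the other way, with 5, 0, and 2 counts in the control libraries and 10, 16, and 9 with ATRA. Counts were similar in both groups for PDGFRB (6378 to 6765 against 6355 to 6724) and LEF1 (468 to 550 against 430 to 517). The falls of PDGFRB and LEF1 thus depend on the scaling. In bulk samples, fewer cells of a type and less RNA per cell cannot be told apart. The summed levels of the other marker lists were low in both groups. They were 3.21 to 4.98 against 5.37 to 5.97 CPM for keratinocytes (7 of 9 markers listed), 0.903 to 1.24 against 6.19 to 9.16 CPM for endothelial cells (5 of 6, of which PECAM1 had 206 to 340 counts with ATRA), 2.72 to 5.86 against 10.8 to 12.0 CPM for leukocytes (4 of 6), and 16.1 to 17.6 against 32.2 to 39.0 CPM for melanocytes (2 of 6). Among them KRT5, TP63, and ITGB4 had no count with ATRA, and PECAM1, CDH5, and CDH1 had none in the control group. The sums do not stand for each marker of a list. KRT10 had 79 to 138 counts in the control group and 231 to 252 with ATRA, while KRT14 had 10 to 20 against 0 to 3. The endothelial marker KDR had 5 to 10 counts in the control group and 0 to 2 with ATRA. Of the markers tested in these 4 lists, 5 were higher and 1 was lower with ATRA. The part of these markers in the results was not tested.

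The ribosome biogenesis factors did not move as a block. With ATRA, 27 of the 75 members tested rose (36.0%) and 31 fell (41.3%), while 17 were not called. Among all genes tested, 40.9% rose and 38.7% fell, and 77.3% of the members against 79.7% of all genes were called in either direction. Their median log2FC was 0.00 beside 0.04 for all genes. Their changes were small, since 64.0% of them had a log2FC within 0.5 of 0, against 44.0% of all genes. At a mean CPM of 10 or more the shares were 71.9% of 64 members and 50.7% of 9030 genes. With the thresholds of the study's methods, a log2FC beyond 1 and an unadjusted p under 0.05, UTP14A and CSNK2A2 rose and 8 members fell (background 13.7% and 17.3% of the genes tested). The libraries of the groups did not overlap for 56 members, where 80.1% of all genes were apart. ATRA was above in 24 of them (background 41.2%) and below in 32 (background 39.0%).

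**Figure D1:**
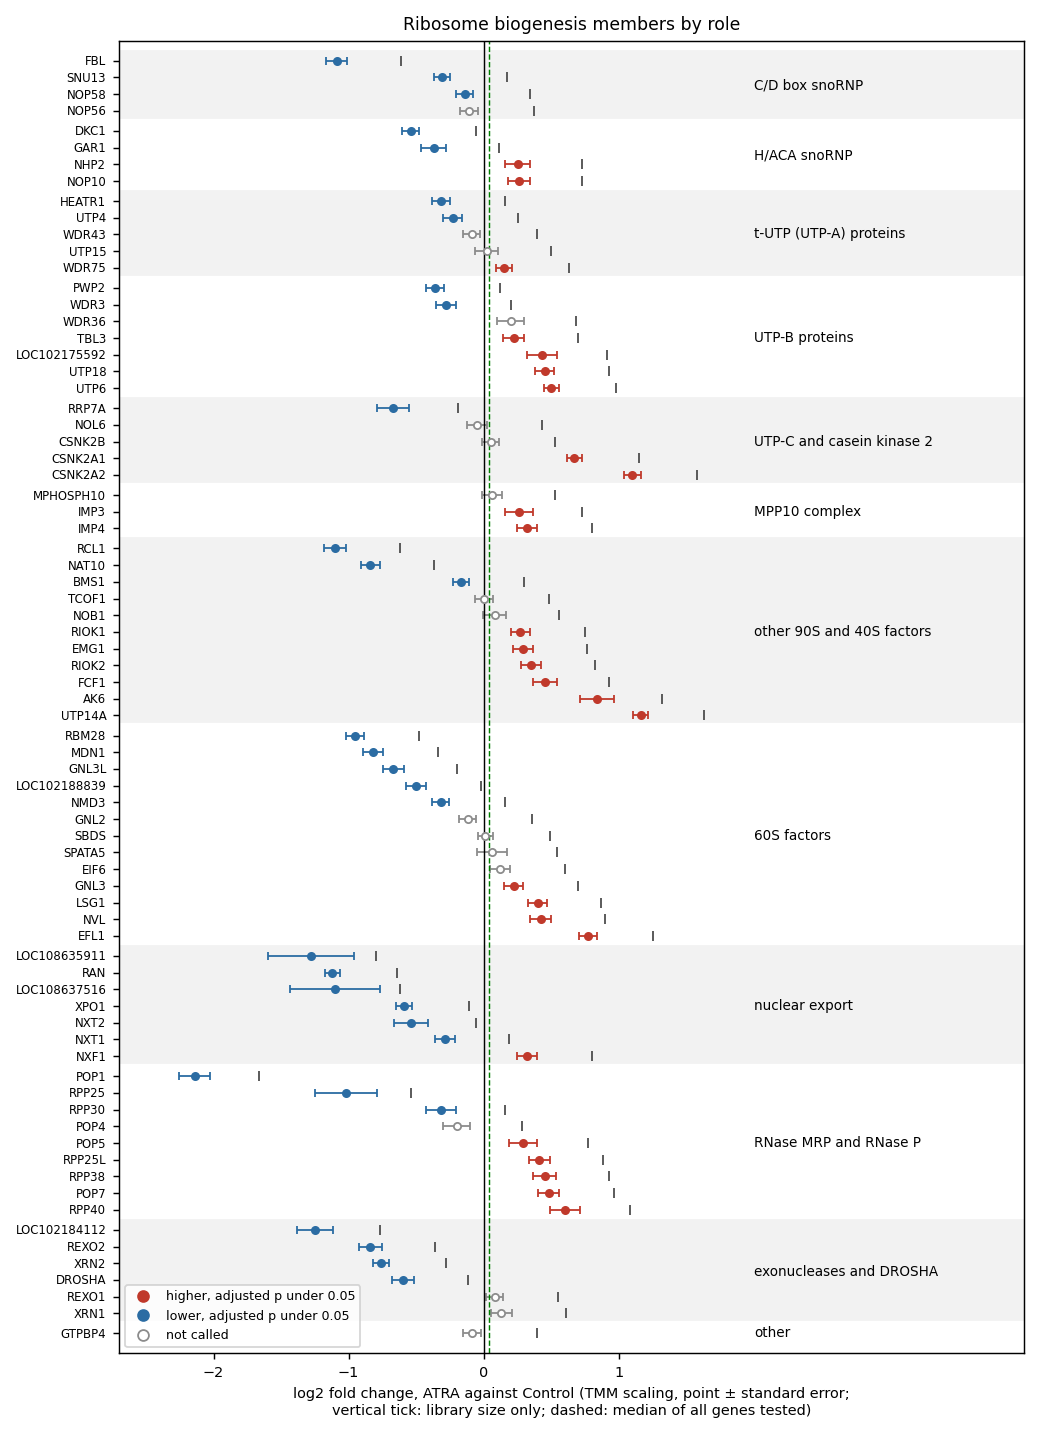
The log2 fold change of each of the 75 members tested (horizontal axis, ATRA over control, point with its standard error), grouped by role, with the value under library size only as a vertical tick. Filled red points rose, filled blue points fell, open points were not called, and values run from -2.14 for POP1 to 1.16 for UTP14A around a median of all genes of 0.04 (dashed).

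**Figure D2:**
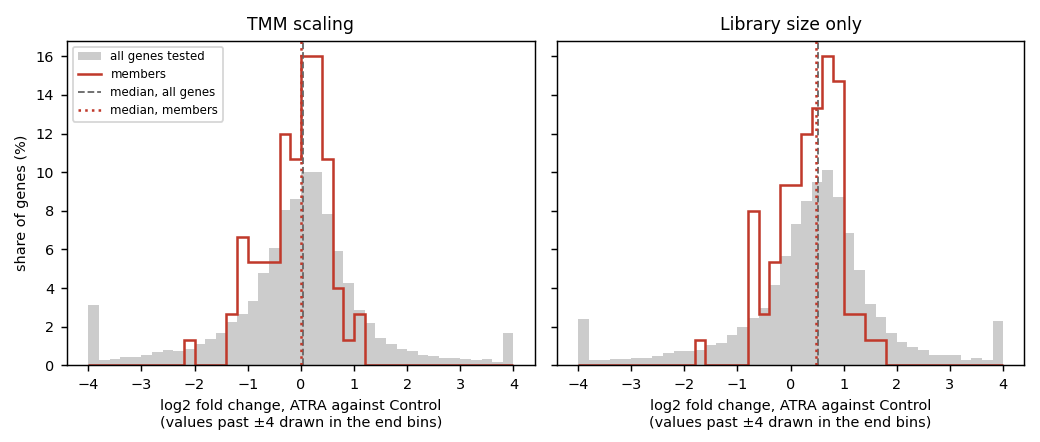
Share of genes (vertical axis, percent) by log2 fold change (horizontal axis, bins of 0.2) for all 12588 genes tested (grey) and the 75 members (red line), under TMM scaling (left) and library size only (right). The median of the members and that of all genes lie close together in both panels, at 0.00 and 0.04 on the left and at 0.48 and 0.52 on the right, and the members spread less.

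Read together, the members took 0.338% to 0.349% of the counts in the control libraries and 0.451% to 0.462% in the ATRA libraries. Their summed level after TMM scaling went from 4042 ± 59.2 to 3857 ± 75.8 CPM (SD, n = 3 each) with ATRA. The direction of this sum therefore depends on the scaling, with a log2 ratio of -0.07 under TMM and 0.41 under library size only.

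The C/D box snoRNPs place the 2′-O-methyl groups on ribosomal RNA, and their enzyme fell further than its partners. FBL encodes fibrillarin, the methyltransferase. It stood at 92.3, 90.4, and 84.4 CPM in the control libraries and at 43.9, 37.1, and 44.5 CPM in the ATRA libraries. Every ATRA library was thus below every control library, with a log2FC of -1.09 (standard error 0.0740, adjusted p = 1.45e-10). NOP56, a scaffold protein of the same particle, was at 128, 129, and 123 CPM in the control group and 126, 105, and 121 CPM with ATRA. The groups overlapped, with a log2FC of -0.11 (adjusted p = 0.132). The other scaffold protein, NOP58, went from 60.6 ± 2.34 to 54.9 ± 0.442 CPM (SD, n = 3 each), a log2FC of -0.14 (adjusted p = 0.0437) that was 0.34 under library size only. SNU13, the RNA-binding core protein, had a log2FC of -0.31 (adjusted p = 0.000169) that turned to 0.17 under library size only. The call of NOP58 was lost without any of 4 libraries, where the adjusted p reached 0.151. Within each library, the ratio of FBL counts to NOP58 counts needs no scaling. It went from 1.47 ± 0.0317 to 0.762 ± 0.0700 (SD, n = 3 each), a 1.93-fold lower ratio with ATRA. The remaining row of this role, the fibrillarin-like gene LOC102171062, had 0 or 1 count in every library and was not tested.

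The H/ACA snoRNPs convert uridine to pseudouridine, and their proteins divided. DKC1 encodes dyskerin, the pseudouridine synthase. Its level was 69.0, 69.6, and 69.5 CPM in the control libraries and 49.4, 45.6, and 48.5 CPM with ATRA. This was a fall without overlap (log2FC -0.54, standard error 0.0624, adjusted p = 2.90e-07), to which library size only gave -0.06. GAR1, which completes the particle, fell from 22.9 ± 2.62 to 17.7 ± 1.08 CPM (SD, n = 3 each, log2FC -0.37, adjusted p = 0.00136), but had a log2FC of 0.11 under library size only. The small proteins NHP2 and NOP10 went the other way. NOP10 was at 30.6, 30.8, and 28.2 CPM and then at 38.8, 31.6, and 36.5 CPM (log2FC 0.26, standard error 0.0828, adjusted p = 0.00908), and NHP2 had a log2FC of 0.25 (adjusted p = 0.0176) with overlapping groups. The rise of NOP10 lost its call without control replicate 3 or ATRA replicate 1, where the adjusted p reached 0.0728, and that of NHP2 without any of 4 libraries, where it reached 0.166. The ratio of DKC1 to NOP10 counts was 2.26, 2.26, and 2.46 in the control libraries and 1.27, 1.44, and 1.33 in the ATRA libraries. This ratio was apart between the groups and 1.73-fold lower with ATRA.

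**Figure D3:**
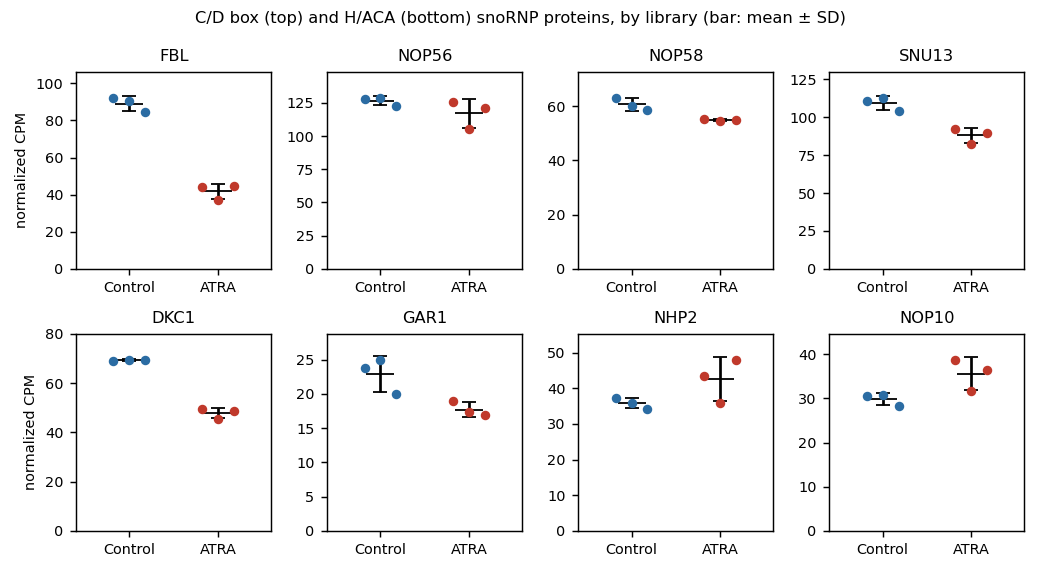
Normalized CPM (vertical axes, from 0) of the C/D box proteins FBL, NOP56, NOP58, and SNU13 and of the H/ACA proteins DKC1, GAR1, NHP2, and NOP10 in each control (blue) and ATRA (red) library, with the mean ± SD of 3 libraries. FBL falls from 89.0 to 41.8 CPM and DKC1 from 69.4 to 47.8 CPM, while NOP56 overlaps and NOP10 lies higher with ATRA.

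The t-UTP proteins join the precursor first and link its transcription to processing. None of the 5 had a log2FC beyond 0.5. HEATR1, the largest scaffold, went from 56.5 ± 2.80 to 45.2 ± 1.82 CPM (SD, n = 3 each, log2FC -0.32, adjusted p = 0.000245), and UTP4 from 49.2 ± 2.66 to 42.1 ± 1.74 CPM (log2FC -0.23, adjusted p = 0.00594). Both were called in the opposite direction under library size only, at 0.16 and 0.25. WDR75 had a log2FC of 0.15 (adjusted p = 0.0336), which was lost without any of 5 of the 6 libraries (adjusted p up to 0.125). UTP15 and WDR43 were not called, with a log2FC of 0.02 and -0.09.

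The UTP-B complex supports the processome at the start of the precursor. Of its 7 rows 4 rose and 2 fell, where 40.9% and 38.7% of all genes tested did. Under library size only 6 rose and none fell, where 62.9% and 22.7% of all genes did. UTP6 was at 97.2, 105, and 103 CPM in the control libraries and 138, 145, and 150 CPM with ATRA, and UTP18 went from 33.6 ± 0.302 to 46.1 ± 2.01 CPM (SD, n = 3 each). Both rose without overlap (log2FC 0.50 and 0.45, adjusted p = 2.45e-07 and 7.42e-06). A UTP6 homolog under the name LOC102175592 also rose (log2FC 0.43, adjusted p = 0.00169), with overlapping groups. Reads of the 2 rows could have been divided between them, so both values are uncertain. TBL3 had a log2FC of 0.22 (adjusted p = 0.0187), lost without any of 3 libraries (adjusted p up to 0.161). PWP2 and WDR3, of the same complex, fell with a log2FC of -0.36 and -0.28 (adjusted p = 0.000120 and 0.00164) and turned to 0.12 and 0.20 under library size only. WDR36 was spread among the ATRA libraries, at 26.8, 33.2, and 24.7 CPM, and was not called (log2FC 0.20, adjusted p = 0.0849).

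Casein kinase 2 works with the UTP-C complex, and both of its catalytic subunits rose. CSNK2A2 was at 35.4, 36.2, and 35.9 CPM in the control group and 80.8, 72.8, and 76.5 CPM with ATRA (log2FC 1.10, standard error 0.0653, adjusted p = 1.95e-11). CSNK2A1, the other catalytic subunit, was at 126, 130, and 128 CPM and then at 208, 202, and 202 CPM (log2FC 0.67, standard error 0.0529, adjusted p = 1.40e-09). In both genes every ATRA library was above every control library. The regulatory subunit CSNK2B overlapped between the groups, at 96.7 ± 5.57 and 100 ± 4.18 CPM (SD, n = 3 each, log2FC 0.05, adjusted p = 0.438). The ratio of CSNK2A2 to CSNK2B counts was 0.343, 0.390, and 0.381 in the control libraries and 0.773, 0.758, and 0.764 with ATRA, 2.06-fold higher. Of the UTP-C proteins, RRP7A fell (log2FC -0.67, adjusted p = 4.45e-05, and -0.19 under library size only) and NOL6 was not called (log2FC -0.05). In the MPP10 complex, which binds the U3 snoRNA with the precursor, IMP4 rose from 18.4 ± 0.193 to 22.9 ± 0.459 CPM (SD, n = 3 each, log2FC 0.32, adjusted p = 0.00108). IMP3 had a log2FC of 0.26 (adjusted p = 0.0309, up to 0.149 when any of 4 libraries was left out) and MPHOSPH10 of 0.06 (adjusted p = 0.486).

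Among the other factors of the small subunit, 6 of 11 rose and 3 fell, where 40.9% and 38.7% of all genes tested did. Under library size only 9 rose and 2 fell, where 62.9% and 22.7% of all genes did. The largest rise of all 75 members was in this group. UTP14A, a processome protein that activates a helicase, was at 133, 128, and 124 CPM in the control libraries and 291, 273, and 295 CPM with ATRA. Its log2FC was 1.16 (standard error 0.0566, adjusted p = 1.04e-12), a 2.23-fold rise with the groups far apart. Its counts were 2.35, 2.38, and 2.10 times those of HEATR1 in the control libraries and 6.51, 5.78, and 6.74 times with ATRA. AK6, an ATPase of late small subunit assembly, rose from 4.45 ± 0.327 to 7.97 ± 0.570 CPM (SD, n = 3 each, log2FC 0.84, adjusted p = 7.13e-06). The nuclease FCF1 (log2FC 0.45), the methyltransferase EMG1 (0.29), and the kinases RIOK1 and RIOK2 (0.27 and 0.35), which act on late small subunit precursors, also rose with adjusted p-values from 0.000140 for FCF1 to 0.00214 for EMG1.

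RCL1, which acts in cutting the precursor, and NAT10, the cytidine acetyltransferase of ribosomal RNA, fell. RCL1 was at 38.3, 38.8, and 42.8 CPM in the control libraries and 18.7, 17.4, and 19.9 CPM with ATRA (log2FC -1.10, standard error 0.0794, adjusted p = 3.66e-10). NAT10 went from 42.7 ± 1.88 to 23.8 ± 0.612 CPM (SD, n = 3 each, log2FC -0.84, adjusted p = 3.79e-09). For both, each ATRA library was below each control library, and both also fell under library size only (log2FC -0.62 and -0.37). BMS1, a GTPase that binds RCL1, had a log2FC of -0.17 (adjusted p = 0.0153) and 0.30 under library size only. The endonuclease NOB1 and TCOF1, a nucleolar protein that promotes ribosomal RNA transcription, were not called (log2FC 0.08 and 0.00).

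The 13 rows of large subunit factors split into 4 that rose, 5 that fell, and 4 not called. Among all genes tested 40.9% rose and 38.7% fell. Under library size only 9 of these rows rose and 3 fell, where 62.9% and 22.7% of all genes did. EFL1, the GTPase that removes EIF6 from the large subunit together with SBDS, was at 27.0, 26.1, and 26.6 CPM in the control libraries and 45.3, 45.7, and 45.1 CPM with ATRA. This 1.71-fold rise (log2FC 0.77, standard error 0.0679, adjusted p = 6.49e-09) was not shared by its partners under TMM scaling. SBDS was at 233 ± 4.31 and 234 ± 12.4 CPM (SD, n = 3 each, adjusted p = 0.859) and EIF6 at 108 ± 8.49 and 117 ± 10.7 CPM (adjusted p = 0.136), both with overlap. Under library size only SBDS and EIF6 were called as rises, with a log2FC of 0.49 and 0.60, beside 1.25 for EFL1. The GTPase LSG1, which acts on the export adaptor NMD3 in the cytoplasm, rose (log2FC 0.40, adjusted p = 5.07e-05). NMD3 itself went from 107 ± 6.67 to 85.6 ± 4.89 CPM (SD, n = 3 each, log2FC -0.32, adjusted p = 0.000206), and to 0.16 on the log2 scale under library size only.

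The AAA ATPases that strip factors from the large subunit went apart. NVL rose, at 26.5, 28.9, and 31.5 CPM in the control group and 38.8, 37.8, and 39.5 CPM with ATRA (log2FC 0.42, adjusted p = 6.84e-05). MDN1, the giant midasin, fell, at 58.5, 58.0, and 65.1 CPM and then at 34.3, 37.0, and 31.3 CPM (log2FC -0.82, standard error 0.0760, adjusted p = 1.27e-08). The ratio of NVL to MDN1 counts was 0.453, 0.499, and 0.484 in the control libraries and 1.13, 1.02, and 1.26 in the ATRA libraries. The related SPATA5 was not called (log2FC 0.06, adjusted p = 0.596). RBM28, an RNA-binding protein of early large subunit particles, fell from 60.8 ± 2.34 to 31.4 ± 1.04 CPM (SD, n = 3 each, log2FC -0.95, adjusted p = 2.42e-10).

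GNL3 and GNL3L, related nucleolar GTPases, had opposite directions. GNL3 (nucleostemin) was at 41.8, 42.2, and 38.3 CPM in the control group and 49.3, 44.2, and 49.0 CPM with ATRA (log2FC 0.22, adjusted p = 0.00897, and 0.0678 without control replicate 3). GNL3L was at 35.3, 38.3, and 36.7 CPM and then at 22.1, 22.3, and 24.8 CPM (log2FC -0.67, standard error 0.0761, adjusted p = 2.01e-07). A second GNL3L row, LOC102188839, also fell (log2FC -0.50, adjusted p = 5.51e-06, and -0.02 under library size only). How reads were divided between the 2 rows is not known, and both values are uncertain for that reason. GNL2 and GTPBP4, further GTPases of the large subunit, were not called, with a log2FC of -0.12 and -0.09.

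In nuclear export, 6 of the 7 rows tested fell and NXF1 rose, while under library size only 2 fell and 2 rose. Among all genes tested, 38.7% fell and 40.9% rose. The rows that fell include RAN and RAN-like copies whose few reads could come from RAN, so they may not be separate genes. RAN, the GTPase that drives transport through the pore, had the most reads of all members in the control libraries. It was at 377, 401, and 368 CPM in the control libraries and 184, 168, and 175 CPM with ATRA, a 2.17-fold fall without overlap (log2FC -1.12, standard error 0.0581, adjusted p = 2.53e-12). XPO1, the exportin that carries both subunits, fell from 138 ± 6.51 to 91.9 ± 3.27 CPM (SD, n = 3 each, log2FC -0.59, adjusted p = 3.39e-08, and -0.11 without a call under library size only). NXF1, an RNA export receptor, rose from 32.2 ± 2.81 to 40.2 ± 1.66 CPM (SD, n = 3 each, log2FC 0.32, adjusted p = 0.000934). Its cofactors NXT1 and NXT2 had a log2FC of -0.29 and -0.54 (adjusted p = 0.00187 and 0.000872). Under library size only, NXT1 turned to 0.19 and NXT2 lost its call, at -0.06.

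The other export rows are RAN-like copies and an NXF3-like gene under LOC names. LOC108635911 and LOC108637516, both RAN-like, had 46, 64, and 77 and 26, 48, and 36 counts in the control libraries against 40, 49, and 15 and 32, 23, and 14 counts with ATRA. Their log2FC of -1.28 and -1.10 rests on few reads that could come from RAN. Without ATRA replicate 3, which held the lowest counts, they were -0.95 and -0.87, and the number of members with a log2FC below -1 and an unadjusted p under 0.05 went from 8 to 5. The third gene that left this group was RPP25, at -0.98. LOC102172451, also RAN-like, and LOC102177698, NXF3-like, had at most 4 counts in any library and were not tested.

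RNase MRP cuts the ribosomal RNA precursor, and RNase P matures transfer RNA with mostly the same proteins. Of their 9 members, 5 rose and 3 fell, where 40.9% and 38.7% of all genes tested did. Under library size only 6 rose and 2 fell, where 62.9% and 22.7% of all genes did. The fall of POP1 was the largest of all 75 members. POP1, the large scaffold protein of both enzymes, was at 14.5, 13.2, and 14.5 CPM in the control libraries and 3.45, 3.02, and 3.09 CPM with ATRA. This is a 4.41-fold fall (log2FC -2.14, standard error 0.116, adjusted p = 5.00e-12) from 428 to 465 counts per control library to 128 to 149 counts per ATRA library. No other protein of these enzymes fell as far. RPP40 rose from 6.72 ± 0.0295 to 10.2 ± 0.771 CPM (SD, n = 3 each, log2FC 0.60, adjusted p = 6.41e-05), and POP7 from 31.1 ± 2.33 to 43.3 ± 2.72 CPM (log2FC 0.48, adjusted p = 1.81e-05). RPP38 and RPP25L rose with a log2FC of 0.45 and 0.41 (adjusted p = 7.29e-05 and 0.000123).

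Among the remaining RNase proteins, POP5 had a log2FC of 0.29 (adjusted p = 0.0144, lost without control replicate 3 at 0.115 or ATRA replicate 1) and POP4 of -0.20 (adjusted p = 0.0766). RPP30 had a log2FC of -0.32 (adjusted p = 0.0142, lost without control replicate 2 or ATRA replicate 1 at up to 0.0876), which was 0.16 under library size only. RPP25 fell from 1.89 ± 0.154 to 0.931 ± 0.0625 CPM (SD, n = 3 each, log2FC -1.02, adjusted p = 0.000532), while its paralog RPP25L rose. RPP25L counts were 10.2, 9.66, and 10.8 times those of RPP25 in the control libraries and 26.2, 26.2, and 30.2 times with ATRA. The ratio of POP1 to RPP38 counts was 0.776, 0.668, and 0.839 in the control libraries and 0.136, 0.125, and 0.116 with ATRA, 6.05-fold lower.

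**Figure D4:**
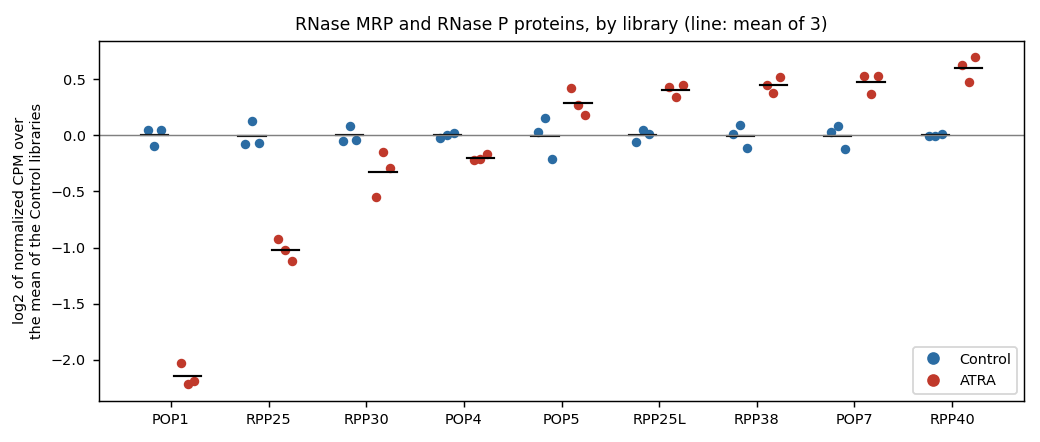
The log2 of normalized CPM over the mean of the control libraries (vertical axis) for the 9 RNase MRP and RNase P proteins, with each control library in blue, each ATRA library in red, and a line at the mean of 3. POP1 drops to about -2.14 and RPP25 to about -1.02, while POP5, RPP25L, RPP38, POP7, and RPP40 lie above 0.

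Of the 6 rows that hold exonucleases and DROSHA, 4 fell and none rose, where 38.7% of all genes fell. Under library size only 3 of these rows fell and 2 rose. XRN2, the exonuclease of the nucleus that trims ribosomal RNA precursors, was at 138, 144, and 138 CPM in the control libraries and 79.5, 89.3, and 79.6 CPM with ATRA (log2FC -0.76, standard error 0.0610, adjusted p = 1.82e-09). XRN1, its relative in the cytoplasm, was at 68.3, 71.1, and 74.2 CPM and then at 74.5, 89.9, and 69.7 CPM (log2FC 0.13, adjusted p = 0.136). The groups were apart for XRN2 and overlapped for XRN1, where ATRA replicate 2 stood highest. LOC102184112, listed with the symbol REXO5, fell from 7.81 ± 0.702 to 3.29 ± 0.227 CPM (SD, n = 3 each, log2FC -1.25, adjusted p = 1.05e-07). REXO2, an exonuclease that degrades short RNA fragments, fell from 77.7 ± 4.28 to 43.6 ± 5.82 CPM (log2FC -0.84, adjusted p = 5.39e-08), and DROSHA, the nuclease best known for cutting microRNA precursors, from 24.9 ± 0.820 to 16.4 ± 0.910 CPM (log2FC -0.60, adjusted p = 1.88e-06, without a call under library size only). REXO1 was not called (log2FC 0.08).

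Ratios within a library were compared for 5 paralog pairs, with the exact permutation test over 3 libraries against 3, two-sided, which cannot give a p under 0.1. The GNL3L to GNL3 ratio went from 0.904 ± 0.0557 to 0.486 ± 0.0321 (SD, n = 3 each, exact p = 0.1). This ratio leaves out the second GNL3L row, LOC102188839. That row had 1889 to 2100 counts in the control libraries, against 1097 to 1238 for GNL3L, so the size of the ratio is uncertain. The XRN2 to XRN1 ratio went from 1.97 ± 0.0948 to 1.07 ± 0.0743 (exact p = 0.1), and the CSNK2A2 to CSNK2A1 ratio from 0.279 ± 0.00101 to 0.376 ± 0.0144 (exact p = 0.1). In these 3 pairs the ATRA libraries lay apart from the control libraries. The ratios NXT2 to NXT1 (0.156 ± 0.00539 and 0.132 ± 0.0254, exact p = 0.3) and RIOK2 to RIOK1 (1.25 ± 0.126 and 1.32 ± 0.0179, exact p = 0.6) overlapped. The other ratios were chosen after their values were seen and carry no test.

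**Figure D5:**
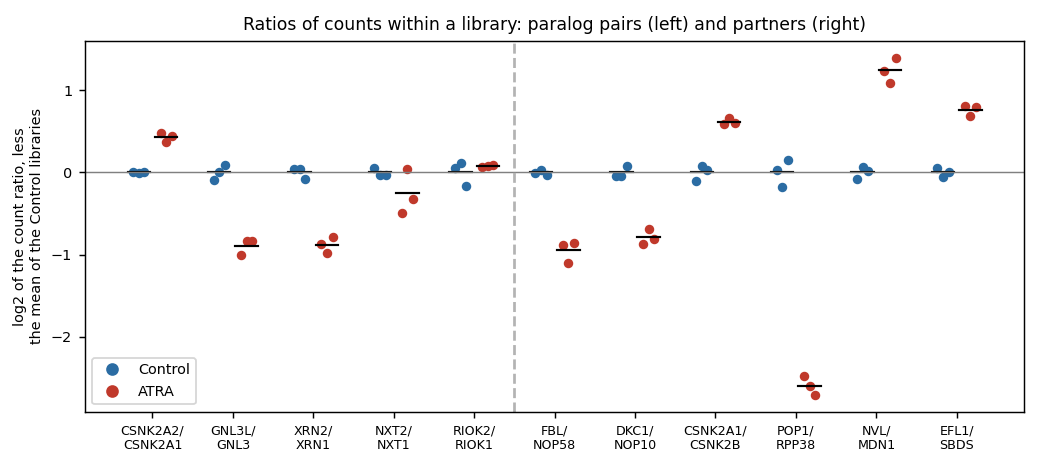
The log2 of the ratio of 2 genes' counts within a library, less the mean of the control libraries (vertical axis), for 5 paralog pairs (left of the dashed line) and 6 pairs of partners chosen after their values were seen (right), with control in blue, ATRA in red, and a line at the mean of 3. The means with ATRA run from -2.60 for POP1 over RPP38 to 1.25 for NVL over MDN1, and NXT2 over NXT1 and RIOK2 over RIOK1 overlap between the groups.

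Library size only moves all genes upward, so rises keep their call under it more readily than falls. Under TMM, RLE, upper-quartile, and library size scaling alike, 26 of the 27 rises (96.3%) were called in the same direction (WDR75 was lost under RLE), and 13 of the 31 falls (41.9%). Over all genes, these shares were 97.7% of the rises and 58.7% of the falls. The 13 falls were those of FBL, GNL3L, LOC102184112, LOC108635911, MDN1, NAT10, POP1, RAN, RBM28, RCL1, REXO2, RPP25, and XRN2. Under library size only, 52 members rose and 13 fell, where 62.9% of all genes rose and 22.7% fell.

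The annotation of the members also differed in what the KEGG map did not use. The GO term nucleolus was listed for 43 of them, of which 12 rose (27.9%) and 20 fell (46.5%), with a median log2FC of -0.12. Of the 32 other members tested, 15 rose (46.9%) and 11 fell (34.4%), with a median of 0.11. Of the members also listed in the KEGG map RNA transport, 17 were tested, 6 rose (35.3%), and 10 fell (58.8%). Among all genes tested, 40.9% rose and 38.7% fell. Under library size only, 30 nucleolus members rose and 11 fell. For the other members these counts were 22 and 2, and for the RNA transport members 9 and 4. The differences between these splits were not tested.

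Ribosome biogenesis genes that the map leaves out were read from 5 lists with 98 genes. Of these, 25 rose (25.5%), 43 fell (43.9%), and 30 were not called, with a median log2FC of -0.12. Among all genes tested, 40.9% rose and 38.7% fell, which is also the background of each list below. Under library size only 70 of the 98 genes rose and 17 fell, where 62.9% of all genes rose and 22.7% fell. Of 8 nucleolar scaffold proteins 7 fell and none rose, while under library size only 2 fell and 5 rose. NPM3, a histone chaperone, fell from 9.92 ± 0.940 to 4.04 ± 0.328 CPM (SD, n = 3 each, log2FC -1.30, adjusted p = 2.59e-08). Of RNA polymerase I and its initiation factors, 7 of 14 rose and 2 fell, from TAF1D at 0.71 (adjusted p = 3.47e-09) to the polymerase subunit CD3EAP at -1.83 (adjusted p = 2.30e-09). Of 31 pre-60S factors, 5 rose and 15 fell, between PES1 at 0.49 and RRP15 at -1.28. Of 31 pre-40S factors, 10 rose and 14 fell, between NGDN at 0.93 and LYAR at -1.57. Of 14 genes of the exosome, an RNA-degrading complex, and its cofactors, 3 rose and 5 fell, between EXOSC9 at 0.76 and MPHOSPH6 at -1.34.

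The proteins of the ribosome itself were counted in the same comparison. Of 77 cytosolic ribosomal protein genes tested, 60 rose (77.9%) and 2 fell, where 40.9% and 38.7% of all genes tested did. Their median log2FC was 0.35 (0.82 under library size only), beside 0.04 (0.52) for all genes. Of the biogenesis factors 36.0% rose, with a median of 0.00. Reads of cytosolic ribosomal protein genes are often shared with processed copies. Of 42 mitochondrial ribosomal protein genes, 18 rose (42.9%) and 13 fell (31.0%), with a median of 0.09. No test of the difference between these groups of genes was made.

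The replicates of the members were close. Among the 64 members at a mean CPM of 10 or more, the median coefficient of variation was 4.52% among the control libraries and 5.42% among the ATRA libraries, beside 5.03% and 5.66% for all such genes. The widest were NOB1 in the control group (13.0%) and WDR36 with ATRA (15.7%). ATRA replicate 2 was the lowest of its group for 36 of these members (56.2%) and for 41.9% of all such genes. Without it, 28 members rose and 31 fell.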

How the data were processed

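RNA-seq was available for 6 libraries. Messenger RNA was captured on oligo(dT) beads and reads were trimmed by fastp and TrimGalore, and the authors deposited whole-number counts of reads per gene, without normalization, with GO and KEGG annotation. The submitters' processing notes name HISAT2, featureCounts, and DESeq2. The genome build and the counting options are not given in the sources used here, so how reads of near-identical genes were assigned is unknown. No coordinates were used. All 15944 names matched RefSeq symbols, the 78 members included.

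The filterByExpr function of edgeR kept 12588 genes. TMM factors set the library sizes, and glmQLFTest (robust, two-sided, no covariate) gave p-values, adjusted by the Benjamini-Hochberg method over those genes. Standard errors are the absolute log2FC over the square root of F. The t.test function of R, named in the study's methods, does not model counts and served as an alternative, on log2(CPM + 1). Other alternatives were DESeq2, RLE, upper-quartile, and library size scaling, other filters, an adjusted p under 0.01, a replicate block, and each library left out. The tests were run on simulated counts in which few of the 12588 genes changed, in both directions. The edgeR test recovered 57 of 67 genes changed by a log2FC of 0.5, 64 of 67 changed by 1, and 66 of 66 changed by 2. It also called 7 unchanged genes. Most genes tested here were called, so the simulation could not check how the scaling acts on these data. The smallest library held 35532339 counts. The p-values measure the spread between 3 cultures per group.

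Named were the 7 core snoRNP proteins, in each role up to 2 members with the largest rise and fall (adjusted p under 0.05, mean CPM of at least 1, groups apart), the 8 most abundant members not called, 1 gene in each direction of each list outside the map, and 5 paralog pairs. The other members were named so that all are accounted for. Members and lists were chosen with earlier results of these data known. Software versions were R 4.3.3, edgeR 4.0.16, DESeq2 1.42.0, Python 3.11.15, SciPy 1.17.1, and matplotlib 3.10.9.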

Additional observations from a re-analysis of the deposited data

How the results depend on the processing

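Library size only, in place of TMM, gave 52 members higher and 13 lower, 6 with a log2FC above 1 and 1 below -1 at an unadjusted p under 0.05, and a median log2FC of the members of 0.48, against 27, 31, 2, 8, and 0.00. It gave 70 and 17 genes of the lists outside the map higher and lower against 25 and 43, and a log2 ratio of the summed level of 0.41 against -0.07 (0.01 with upper-quartile scaling). The t.test function left 5 members with a log2FC below -1 and 16 genes outside the map higher. Leaving out each library in turn gave 21 to 28 members higher and 29 to 31 lower, and 5 to 8 with a log2FC below -1. The signs turned with library size only, to log2FC of 0.30 for BMS1, 0.11 for GAR1, 0.36 for GNL2, 0.39 for GTPBP4 and WDR43, 0.16 for HEATR1, NMD3, and RPP30, 0.43 for NOL6, 0.37 for NOP56, 0.34 for NOP58, 0.19 for NXT1, 0.28 for POP4, 0.12 for PWP2, 0.17 for SNU13, 0.25 for UTP4, and 0.20 for WDR3. Other signs turned only for members not called and near 0. They were NOL6 with upper-quartile scaling (0.03), SBDS with RLE and DESeq2 (-0.01), TCOF1 with RLE and DESeq2 (-0.02) and without a low-count filter (-0.01), and, with a library left out, MPHOSPH10 (-0.01 to 0.11), SBDS (-0.04 to 0.03), SPATA5 (-0.02 to 0.13), TCOF1 (-0.01 to 0.01), and UTP15 (-0.04 to 0.06). Of the 58 calls, DESeq2 lost 2, the t.test function 12, and library size only 10, with 8 more called in the opposite direction. Library size only also called the 17 members that were not called under TMM, all of them as higher with ATRA. The cause was not tested. Whether libraries of the same replicate number share an animal is not known. The correlation of same-numbered deviations was 0.299, -0.029, and -0.236. Deviations from a mean of 3 libraries are not independent, so these values cannot decide it. With the replicate block 27 members rose and 31 fell, the same genes as without it. Of the control libraries, replicate 1 correlated best with its own number and the others did not.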
